A study of Homo sapiens with 9 samples.

Results

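The MHC class I antigen presentation genes examined here were 9 genes chosen by symbol: HLA-B, HLA-C, HLA-E, HLA-F, B2M, TAP1, TAP2, TAPBP and NLRC5. All 9 were found among the 60675 genes of the count files, and all 9 were among the 19278 genes with enough counts to be tested. Their RNA was measured by RNA-seq in LNCaP:C4-2, a castrate-resistant prostate cancer cell line derived from LNCaP. Every group was a stable line transduced with a doxycycline-inducible short hairpin RNA (shRNA) in a lentiviral vector, selected with puromycin (1 μg/ml) and induced for 6 days by doxycycline (1 μg/ml) in medium with charcoal-stripped serum. The control line carried a scrambled hairpin that targets no gene (shScramble), and the other lines carried hairpins against METTL3, the catalytic subunit of the m6A RNA methyltransferase complex, named shMETTL3 guide 2 and shMETTL3 guide 1. Each group held 3 libraries, and the word vehicle stands in the sample titles of all groups. The paper's methods use this word for the ethanol control of androgen treatment. The titles name no androgen and do not say what the vehicle was. Nothing in the labels says that the 3 libraries came from separate cultures, so the p-values measure only the spread between these libraries, which may be technical.

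MHC class I molecules display short peptides from inside the cell to CD8+ T cells. Proteasomes cut proteins into peptides, the TAP1 and TAP2 transporter moves them into the endoplasmic reticulum, and tapasin, the product of TAPBP, holds the empty heavy chain at the transporter until a peptide binds. The heavy chain is encoded by an HLA gene and is stable at the surface only with beta-2-microglobulin, the product of B2M. NLRC5 is the transactivator of class I genes and acts with the RFX, CREB and NF-Y factors at a shared promoter module, while interferon acts on the same genes through interferon regulatory factors. Loss of class I is a known route by which tumours, including prostate cancers, escape T cells.

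The HLA, TAP and TAPBP genes lie in the MHC on chromosome 6 (GRCh38, positions of the authors' annotation). HLA-F spans 29722775 to 29738528 and HLA-E 30489467 to 30494205 on the plus strand. HLA-C spans 31268749 to 31272130 and HLA-B 31353872 to 31357188 on the minus strand. Further along, also on the minus strand, TAP2 spans 32821833 to 32838780, TAP1 32845209 to 32853978 and TAPBP 33299694 to 33314387. B2M lies on chromosome 15 from 44711477 to 44718877 and NLRC5 on chromosome 16 from 56989485 to 57083531, both on the plus strand. Some exons are shared with other annotated genes: 32.3% of the exon bases of TAP2 lie in a readthrough gene with 0 counts, 28.5% of those of HLA-F, 18.0% of those of HLA-B and 9.96% of those of TAP1 lie in genes of the opposite strand. Of the latter, HLA-F-AS1 had 17 to 51 counts per library and the others at most 13.

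The sequences before the transcription start are shown because many class I genes are known for interferon and NLRC5 control elements there. The part of such elements in the differences between groups was not tested. RefSeq (GRCh38.p14) gave a promoter for 7 of the 9 members, and the 250 bases before the start were searched on both strands. The stretch that holds the matches is printed for 6 of them, 5′ to 3′ on the gene's own strand. Capitals mark every match to TTTCNNTTT or TTTCNNTTC (forms of the interferon-stimulated response element), the consensus kappa B site, TGACGC (the core of the X2 site bound by CREB and ATF factors) and CCAAT (the NF-Y or Y box). Matches on the opposite strand read as AAANNGAAA, GAANNGAAA, GCGTCA and ATTGG, and overlapping matches form longer runs.
TAP1, chr6:32853761-32853954, minus strand: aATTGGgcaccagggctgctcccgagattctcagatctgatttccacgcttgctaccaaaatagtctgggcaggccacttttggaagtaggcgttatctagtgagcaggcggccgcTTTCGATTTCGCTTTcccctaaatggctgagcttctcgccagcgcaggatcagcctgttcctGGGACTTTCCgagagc
TAP2, chr6:32838763-32838808, minus strand: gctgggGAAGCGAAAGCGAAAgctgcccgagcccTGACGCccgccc
TAPBP, chr6:33314079-33314140, minus strand: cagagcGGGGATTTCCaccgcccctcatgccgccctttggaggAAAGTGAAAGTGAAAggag
B2M, chr15:44711368-44711478, plus strand: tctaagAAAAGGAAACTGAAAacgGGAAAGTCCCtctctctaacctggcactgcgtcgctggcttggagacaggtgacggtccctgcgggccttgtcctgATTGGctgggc
HLA-B, chr6:31357225-31357362, minus strand: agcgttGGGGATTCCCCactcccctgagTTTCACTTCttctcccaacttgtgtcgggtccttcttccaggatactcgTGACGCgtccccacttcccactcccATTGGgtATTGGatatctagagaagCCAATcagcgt
HLA-C, chr6:31272138-31272290, minus strand: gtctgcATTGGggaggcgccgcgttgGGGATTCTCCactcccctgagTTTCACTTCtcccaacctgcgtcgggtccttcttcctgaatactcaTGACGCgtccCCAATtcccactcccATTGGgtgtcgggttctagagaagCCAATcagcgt

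Among 35116 promoters of the same length, 9.20% held TTTCNNTTT, 6.56% TTTCNNTTC, 5.21% the kappa B consensus, 7.67% TGACGC and 32.0% CCAAT. Of the 8 entries for the 7 members (TAP1 has 2, of which the first is printed), 5 held TTTCNNTTT, namely those of TAP1, TAP2, TAPBP, B2M and HLA-F. TAP1, TAPBP and B2M each held 2 overlapping copies, and the copies in TAPBP began only 19 and 13 bases before the start. The HLA-B and HLA-C promoters held TTTCNNTTC instead, which differs in its last letter, together with kappa B matches before it and X2 and CCAAT matches after it (HLA-C had a further CCAAT match before it), and the 250 bases of the pair aligned with 226 of 254 columns identical (89.0%). Kappa B matches were also present in TAP1, TAPBP and B2M, and CCAAT in TAP1, B2M and HLA-F. TAP2 also held TTTCNNTTC and TGACGC. Of the 8 entries, 3 held TTTCNNTTC, 5 the kappa B consensus, 3 TGACGC and 5 CCAAT. TAPBP held neither the X2 nor the CCAAT letters in this window. The letters searched were settled after matches had been seen, and a match is a description of letters, not a measured binding site.

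METTL3 itself was lowered in the guide 2 libraries and not in those labelled guide 1. Its normalised read counts (CPM, counts scaled by library size and TMM factors) were 29.8, 31.7 and 33.0 in shScramble, 16.6, 16.5 and 15.8 with guide 2, and 29.4, 30.1 and 29.6 with the label guide 1. Relative to shScramble, its log2 fold change was -0.95 with guide 2 (SE 0.0687, adjusted p = 2.97e-12) and -0.08 with the label guide 1 (SE 0.0633, adjusted p = 0.251, edgeR's quasi-likelihood test). The libraries labelled shMETTL3 guide 1 are therefore named by their label throughout. Total counts were 21899501 to 30897639 per library. The 9 luminal prostate markers summed to between 2221 and 2254 CPM in shScramble and between 2415 and 2562 with guide 2. With the label guide 1 they summed to between 1131 and 1159 CPM. There 5 of the 9 were lowered, beside 16.5% of all genes. Leukocyte markers, 8 genes, summed to between 0.518 and 2.49 CPM with the T cell gene CD3E at 0, and the 6 stromal and endothelial markers to between 19.8 and 48.3 CPM. Of the latter PECAM1 was at 0 and COL1A1 gave most of the sum, with 41.6 to 45.5 CPM in shScramble, 33.2 to 36.6 with guide 2 and 18.6 to 24.6 with the label guide 1, where it was lowered. PDGFRB and VWF, at 0.562 to 4.35 CPM, were raised with guide 2 (log2 1.33 and 0.99) and lowered with the label guide 1 (-0.74 and -0.60), the directions of TAPBP, and their part in the results was not tested. In such bulk samples, fewer cells that express a gene and less RNA per cell cannot be told apart.

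In the shScramble control the class I genes covered a wide range of levels. Per kilobase of exon, HLA-C was highest with 55.8 ± 0.235 CPM per kb (SD, n = 3), which exceeded 96.4% of the genes tested. B2M followed with 32.3 ± 1.91, then HLA-E with 18.9 ± 0.722, TAPBP with 15.2 ± 0.679 and HLA-B with 13.4 ± 0.334 CPM per kb. TAP1 with 5.10 ± 0.438 lay above the median of all tested genes, 3.25 CPM per kb, whereas TAP2 with 2.35 ± 0.221, HLA-F with 1.07 ± 0.259 and NLRC5 with 0.529 ± 0.0236 lay under it. No neighbours in this order overlapped over the 3 libraries. With guide 2 the order was the same except that TAPBP and HLA-E, which overlapped there, exchanged places, and with the label guide 1 HLA-B moved ahead of TAPBP to the level of HLA-E, which it overlapped. Levels of HLA genes rest on alignment to the reference alleles, which those of the cell line need not match. Their order is therefore less certain than their differences between groups. For TAP2, 32.3% of the exon bases are shared with a readthrough gene on the same strand. How reads there were counted is not known, so its place under the median is uncertain.

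**Figure D1:**
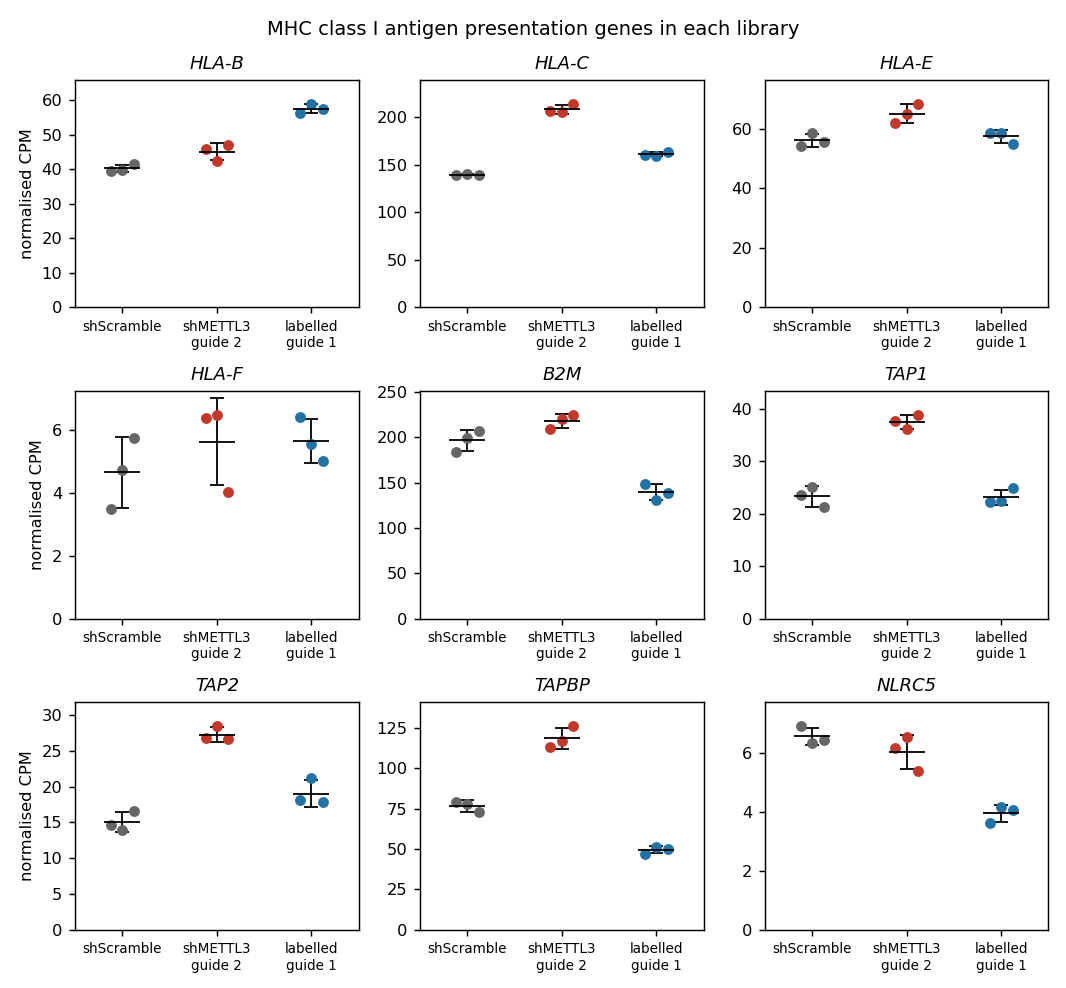
Normalised CPM (vertical axes from 0, on separate scales) of the 9 class I genes in the 3 shScramble, 3 shMETTL3 guide 2 and 3 libraries labelled guide 1. Points are libraries, horizontal bars means and error bars SD (n = 3). TAP1, TAP2 and TAPBP are highest with guide 2, HLA-B with the label guide 1, and B2M, TAPBP and NLRC5 are lowest with the label guide 1.

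With guide 2, where METTL3 was lowered, the transporter and tapasin genes had more RNA. TAP1, TAP2 and TAPBP were raised 1.60-fold, 1.83-fold and 1.55-fold, the heavy chain HLA-C lay at 1.49-fold, HLA-B, HLA-E and B2M were higher by 10.8% to 15.96%, and HLA-F and NLRC5 did not pass the test. The terms raised and lowered are kept for genes that differed at least 1.5-fold with an adjusted p-value (Benjamini-Hochberg over all 19278 genes) below 0.05. By this rule 3 of 9 members were raised and 0 lowered, where 8.85% of all tested genes were raised and 20.4% lowered (29.3% in all). At the adjusted p-value alone 7 of the 9 were higher and 0 lower, against 30.0% higher and 31.7% lower of all genes (61.8% in all), and 7 of the 9 had no overlap between the groups, as had 66.5% of all genes. The median log2 fold change of the 9 members was 0.30, and that of all tested genes -0.04. Scaled by library size alone, which moved the median of all genes to -0.19, TAP1 (0.53) and TAPBP (0.48) fell short of the fold limit. With that scaling B2M (-0.0025), HLA-B (0.01) and HLA-E (0.06) did not pass the adjusted p-value either (0.968, 0.843 and 0.308), and with a minimum of 1 CPM HLA-B (0.12, adjusted p = 0.0641) and B2M (0.10, adjusted p = 0.085) did not. The same held without guide 2 replicate 3 for HLA-B (0.14, adjusted p = 0.0612) and B2M (0.13, adjusted p = 0.0535), and without shScramble replicate 1 for B2M (0.11, adjusted p = 0.104).

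Among the libraries labelled guide 1 the members moved in both directions. TAPBP and NLRC5 were lowered, B2M was 1.41-fold lower, HLA-B was 42.9% higher and TAP2 27.3% higher, HLA-C was 15.6% higher, and TAP1, HLA-E and HLA-F did not pass the test. Of the 9 members 0 were raised and 2 lowered, where 37.7% of all genes were called, 21.2% raised and 16.5% lowered. At the adjusted p-value alone 3 were higher and 3 lower, 6 of 9, against 35.4% higher and 33.0% lower of all genes (68.4% in all), and 6 had no overlap, against 71.0% of all genes. The median of the members was 0.03 and that of all genes -0.02 (log2). The luminal markers fell in the same libraries (above), and their part in these differences was not tested. The comparisons with shScramble share the same 3 control libraries.

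**Figure D2:**
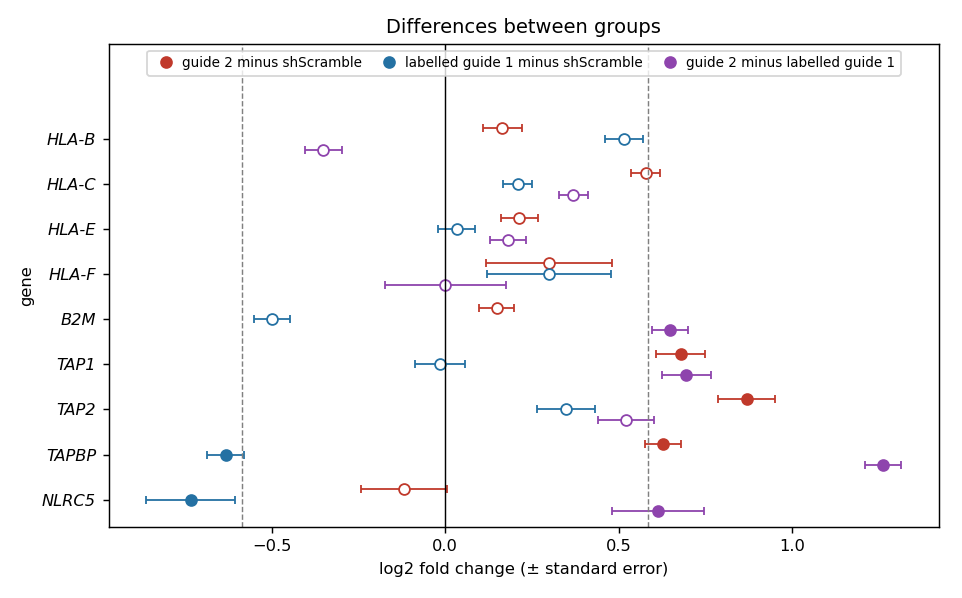
Log2 fold change with its standard error for each class I gene in 3 comparisons. Filled points passed the adjusted p-value and the 1.5-fold limit (dashed lines), and open points did not. HLA-C with guide 2 (0.58) lies just inside the dashed line, and TAPBP lies at 0.63 and -0.63 against shScramble.

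TAP1 and TAP2 encode the subunits of the peptide transporter. TAP1 had 23.6, 25.2 and 21.2 CPM in the shScramble libraries, 37.6, 36.1 and 38.8 with guide 2, and 22.2, 22.5 and 24.9 with the label guide 1. All 3 guide 2 libraries lay above the other 6, which overlapped each other. With guide 2 the log2 fold change was 0.68 (SE 0.0706, adjusted p = 3.48e-09), whereas with the label guide 1 it was -0.01 (SE 0.0722, 95% interval -0.16 to 0.13, adjusted p = 0.863). The latter sign turned under some alternatives, between -0.0801 and 0.0363.

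TAP2 had 14.6, 13.9 and 16.6 CPM in shScramble, 26.8, 28.4 and 26.7 with guide 2, and 18.2, 21.2 and 17.8 with the label guide 1. The 3 groups did not overlap, with guide 2 highest and shScramble lowest. TAP2 was the member with the largest fold change for guide 2 (log2 0.87, SE 0.0824, adjusted p = 6.06e-10), and it was higher in both hairpin groups, since its log2 fold change with the label guide 1 was 0.35 (SE 0.0836, adjusted p = 0.000599).

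TAPBP, whose product tapasin edits the peptides that heavy chains accept, had 79.3, 77.9 and 72.8 CPM in shScramble, 113, 117 and 126 with guide 2, and 47.0, 51.3 and 50.1 with the label guide 1. No groups overlapped, and shScramble lay between the hairpin groups. It was raised with guide 2 (log2 0.63, SE 0.0515, adjusted p = 3.58e-11) and lowered with the label guide 1 (-0.63, SE 0.0533, adjusted p = 2.52e-11). It was the only one of the 9 members called in opposite directions against shScramble.

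B2M, the light chain that every class I heavy chain needs, had 184, 199 and 207 CPM in shScramble, 209.8, 220.3 and 224 with guide 2, and 148, 131 and 139 with the label guide 1. The guide 2 libraries lay just above the control range and the libraries labelled guide 1 well under it. The log2 fold change was 0.15 with guide 2 (SE 0.0508, adjusted p = 0.0135) and -0.50 with the label guide 1 (SE 0.0512, adjusted p = 1.39e-09), both short of the fold limit. PATL2, an RNA-binding protein gene that starts 161 bases from B2M on the opposite strand, stood at only 1.07, 0.197 and 0.703 CPM in the 3 groups (shScramble, guide 2, label guide 1).

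HLA-C, a classical heavy chain that also serves as a ligand of killer immunoglobulin-like receptors on natural killer cells, had 139.9, 140.3 and 139 CPM in shScramble, 206, 205 and 214 with guide 2, and 161, 159.5 and 164 with the label guide 1. The 3 groups were separate and the control libraries spread by only 0.590 CPM (SD). With guide 2 the log2 fold change was 0.58 (SE 0.0425, adjusted p = 3.9e-12), just under the limit of a 1.5-fold change, and over the alternatives it lay between 0.43 (library size alone) and 0.60 (DESeq2, past the limit). With the label guide 1 it was 0.21 (SE 0.0424, adjusted p = 9.04e-05).

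HLA-B, the other classical heavy chain, had 39.6, 39.9 and 41.4 CPM in shScramble, 46.0, 42.5 and 47.0 with guide 2, and 56.2, 58.9 and 57.5 with the label guide 1. Here the libraries labelled guide 1 were the highest and those of guide 2 only just cleared the controls. The log2 fold change was 0.16 with guide 2 (SE 0.0559, adjusted p = 0.0127) and 0.52 with the label guide 1 (SE 0.0543, adjusted p = 2.33e-09). HLA-B and HLA-C differed in which hairpin group was highest, and the part of their promoters in this was not tested.

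HLA-E, a non-classical heavy chain that is read by the NKG2A receptor of natural killer cells, had 54.3, 58.5 and 55.7 CPM in shScramble, 62.0, 65.1 and 68.4 with guide 2, and 58.7, 58.7 and 55.1 with the label guide 1. Its guide 2 libraries were the highest 3 and the other groups overlapped. The log2 fold change was 0.21 with guide 2 (SE 0.0532, adjusted p = 0.00109) and 0.03 with the label guide 1 (95% interval -0.07 to 0.14, adjusted p = 0.595).

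HLA-F, a further non-classical heavy chain, had 3.49, 4.71 and 5.74 CPM in shScramble, 6.37, 6.46 and 4.03 with guide 2, and 6.39, 5.54 and 5.02 with the label guide 1. With 89 to 182 counts per library the groups overlapped throughout. Neither comparison passed the test: the log2 fold change was 0.30 with guide 2 (95% interval -0.06 to 0.66, adjusted p = 0.161) and also 0.30 with the label guide 1 (-0.05 to 0.65, adjusted p = 0.143). These values rest on single libraries: leaving out 1 library moved the guide 2 value between 0.13 and 0.49, with an adjusted p of 0.0166 without guide 2 replicate 3 and 0.0421 without shScramble replicate 3, and the value for the label guide 1 between 0.12 and 0.45, with an adjusted p of 0.036 without shScramble replicate 3. HLA-G, whose product is best known from the placenta, had at most 4 counts in any library and was not tested.

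NLRC5, the transactivator, had 6.89, 6.34 and 6.44 CPM in shScramble, 6.16, 6.54 and 5.39 with guide 2, and 3.62, 4.18 and 4.05 with the label guide 1. The guide 2 and shScramble libraries overlapped, and the libraries labelled guide 1 lay under all the others. NLRC5 did not pass the test with guide 2 (log2 -0.12, SE 0.125, 95% interval -0.36 to 0.13, adjusted p = 0.418) and was lowered with the label guide 1 (-0.73, SE 0.128, adjusted p = 1.25e-05). The libraries labelled guide 1 also had the highest HLA-B, and a link between these levels was not tested.

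The hairpin lines were also compared with each other directly. Of the 9 members 4 were raised and 0 lowered with guide 2 relative to the label guide 1, where 47.3% of all genes were called, 19.1% raised and 28.2% lowered. These were TAPBP (log2 1.26, SE 0.053, adjusted p = 3.6e-18), TAP1 (0.69, adjusted p = 8.56e-10), B2M (0.65, adjusted p = 4.86e-12) and NLRC5 (0.61, adjusted p = 0.000158). By library size alone TAPBP was the only one of the 4 past the fold limit, and NLRC5 also missed it without guide 1 replicate 1 (0.56) or guide 2 replicate 2 (0.56). HLA-B was the only member that was lower with guide 2 at the adjusted p-value (log2 -0.35, SE 0.0546, adjusted p = 1.71e-06). TAP2 (0.52), HLA-C (0.37) and HLA-E (0.18) were higher without reaching the fold limit, and HLA-F stood at 0.00 (95% interval -0.34 to 0.34). At the adjusted p-value alone 7 of 9 were higher and 1 lower, against 34.7% higher and 39.9% lower of all genes (74.6% in all), and 8 did not overlap, against 75.8% of all genes.

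Ratios between members within a library do not depend on how libraries are scaled. These ratios were chosen after the values were seen and are given without a test. The ratio of HLA-C to HLA-B counts per kb was 4.03 to 4.25 in shScramble, 5.39 to 5.81 with guide 2 and 3.25 to 3.44 with the label guide 1, so that the groups were separate. HLA-C made up 62.6% ± 0.716 (SD, n = 3) of the summed counts per kb of HLA-B, HLA-C, HLA-E and HLA-F in shScramble, 68.5% ± 0.163 with guide 2 and 61.9% ± 0.884 with the label guide 1. The sum of these 4 heavy chains relative to B2M was 2.62 to 2.91 in shScramble, 3.30 to 3.48 with guide 2 and 4.27 to 4.86 with the label guide 1. Heavy chain RNA was therefore higher relative to light chain RNA in both hairpin groups, with no overlap. The ratio of TAPBP to B2M rested at 0.423 to 0.518 in shScramble and 0.382 to 0.473 with the label guide 1, which overlapped, and at 0.638 to 0.676 with guide 2.

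**Figure D3:**
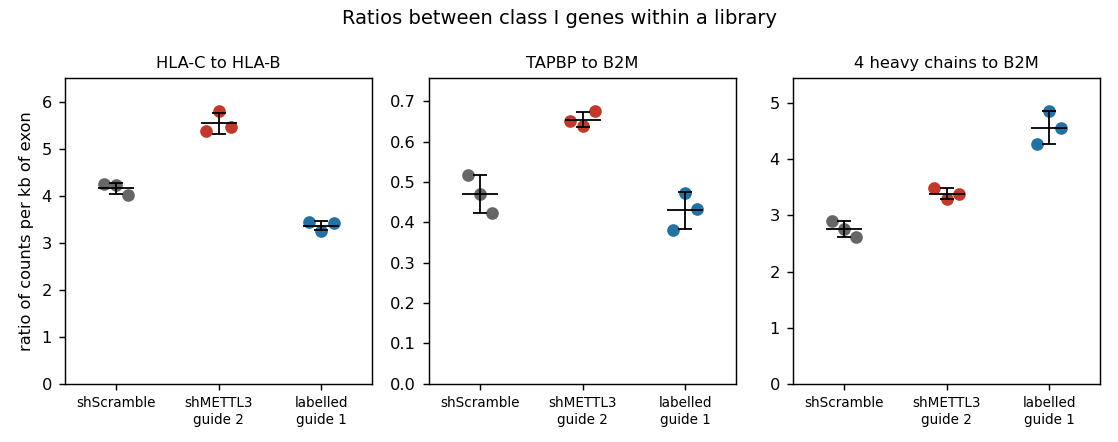
Ratios of counts per kb of exon between class I genes within each library (vertical axes from 0), with the mean and SD of 3 libraries per group. HLA-C to HLA-B is highest with guide 2 (5.39 to 5.81) and lowest with the label guide 1 (3.25 to 3.44), and the 4 heavy chains (HLA-B, HLA-C, HLA-E and HLA-F) relative to B2M lie from 2.62 to 2.91 in shScramble and from 4.27 to 4.86 with the label guide 1.

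The other genes of the pathway were taken from hand-written lists. Of the 55 genes in the lists that are not members, 52 were tested. With guide 2, 8 were raised and 5 lowered (25.0%, beside 29.3% of all genes), and with the label guide 1, 6 were raised and 9 lowered (28.8%, beside 37.7%). Between the hairpin groups 22 of the 52 were called (42.3%, beside 47.3%). The share called in the pathway as a whole was therefore not above that of all genes, and the lists differed among themselves.

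The immunoproteasome and its PA28 activator had most of their members on one side of 0 in each comparison. PSMB8, PSMB9 and PSMB10 are the catalytic subunits that replace those of the standard proteasome, and PSME1, PSME2 and PSME3 encode PA28 subunits. With guide 2 all 6 had higher values and 2 were raised, with a median of 0.52 (all genes -0.04), and with the label guide 1, 5 of the 6 had lower values and 3 were lowered, with a median of -0.66 (all genes -0.02). Between the hairpin groups 5 of the 6 were raised with guide 2, with a median of 1.21. Of all genes, 8.85% were raised with guide 2 and 16.5% lowered with the label guide 1. Between the hairpin groups 19.1% of all genes were raised with guide 2.

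PSMB8 lies between TAP2 and TAP1 and had 6.96, 5.87 and 5.70 CPM in shScramble, 10.0, 10.5 and 9.61 with guide 2, and 3.12, 2.23 and 2.78 with the label guide 1. No groups overlapped (log2 0.70, adjusted p = 1.88e-05, and -1.19, adjusted p = 2.56e-08). PSMB9, which is transcribed away from TAP1 from a shared promoter region, had 0.776, 0.816 and 0.657 CPM in shScramble and 2.12, 1.91 and 2.40 with guide 2 (log2 1.495, SE 0.257, adjusted p = 1.39e-05). With 13 to 18 counts in the libraries labelled guide 1 it did not pass the test there (-0.53, adjusted p = 0.129). Its annotated span overlaps that of TAP1 on the opposite strand. PSMB10, on chromosome 16, was called only with the label guide 1 (-0.93, adjusted p = 1.61e-05), with 0.15 for guide 2 (adjusted p = 0.423). PSME1 was also lowered with the label guide 1 (-0.79). With guide 2 it was higher, just under the fold limit (0.565, adjusted p = 3.91e-10).

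Peptide loading beyond the members was represented by 9 genes. CALR, the chaperone calreticulin of the loading complex, was the only one raised with guide 2, and 0 were lowered. Of all genes, 8.85% were raised and 20.4% lowered with guide 2. CALR went from 588 ± 31.4 to 913 ± 10.5 CPM (log2 0.64, adjusted p = 3.58e-11). With the label guide 1, CANX, the chaperone calnexin, was raised from 898 ± 47.2 to 1860 ± 59.3 CPM (log2 1.05). There TAPBPL, the second peptide editor, was lowered (-0.94), as were the peptide-trimming aminopeptidases ERAP2 (-0.68) and ERAP1 (-0.62). With this label 1 of the 9 was raised and 3 lowered, beside 21.2% and 16.5% of all genes. PDIA3, the partner of tapasin in the complex, was not called in either comparison (0.30 and 0.02).

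Of the 14 other transactivation genes, RFX5, a DNA-binding subunit of the RFX complex, was the only one called with guide 2. Of all genes, 29.3% were called in that comparison. RFX5 was raised from 61.5 ± 2.16 to 101 ± 3.09 CPM (log2 0.72, adjusted p = 4.91e-13) and stood at 84.4 ± 1.28 CPM with the label guide 1 (0.46, adjusted p = 1.94e-09, under the fold limit). With the label guide 1, 1 of the 14 was raised and 1 lowered, beside 21.2% and 16.5% of all genes. RFXAP of the same complex was the raised gene (0.71). IRF1, an interferon-induced activator of class I promoters, was lowered there (-0.591, adjusted p = 5.8e-05). Its value was only just past the log2 limit of 0.585 in either direction. IRF1 with guide 2 had a log2 fold change of -0.24 (adjusted p = 0.0674).

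Interferon receptors and signalling, 13 genes, gave 0 raised and 3 lowered with guide 2 and 1 raised and 1 lowered with the label guide 1. JAK1, the kinase shared by type I and type II interferon receptors, was lowered with guide 2 from 28.5 ± 1.44 to 10.9 ± 0.735 CPM (log2 -1.39, adjusted p = 2.64e-15) and raised with the label guide 1 to 67.1 ± 0.894 CPM (1.23, adjusted p = 1.21e-16), the opposite order to TAPBP. JAK2, the kinase of the interferon-gamma receptor, was lowered in both (-0.61 and -0.94). Of 30 interferon-stimulated genes 23 were tested, and 8 were raised and 1 lowered with guide 2 (median 0.54), whereas 4 were raised and 11 lowered with the label guide 1 (median -0.64). Beside these stand 8.85% raised and 20.4% lowered of all genes with guide 2, and 21.2% and 16.5% with the label guide 1.

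**Figure D4:**
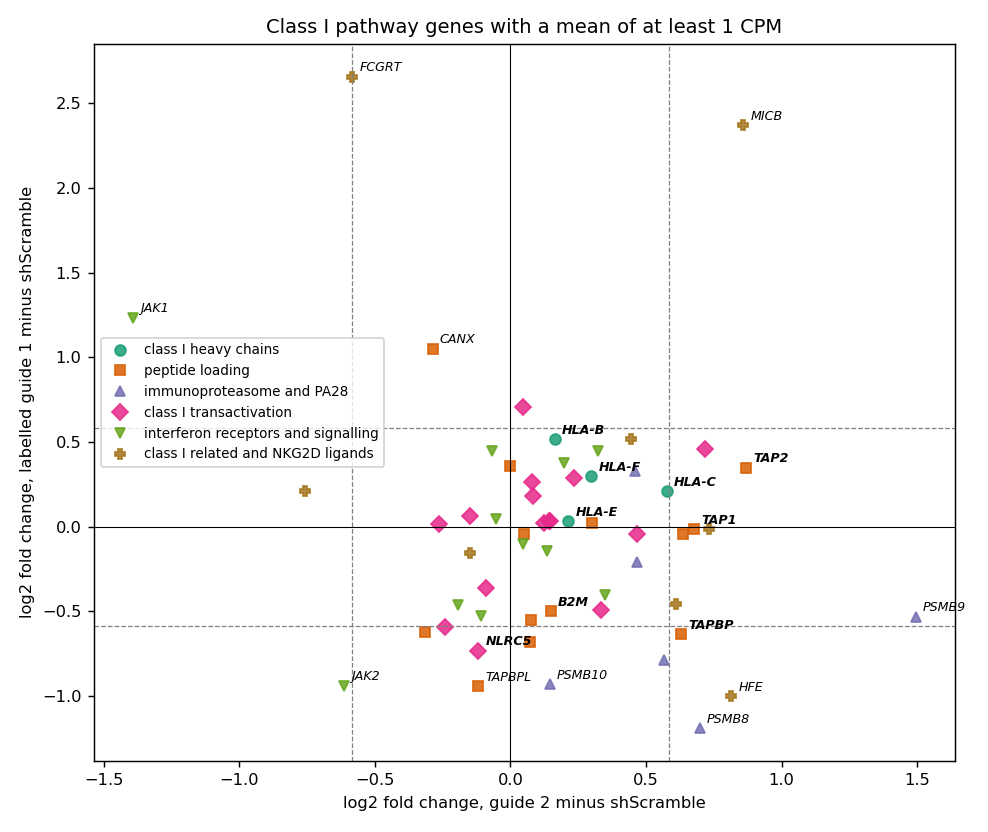
Log2 fold changes with guide 2 (horizontal axis) and with the label guide 1 (vertical axis), both against the same shScramble libraries, for class I pathway genes that averaged 1 CPM or more. Symbols mark the lists, bold names the 9 members, and dashed lines the 1.5-fold limit. PSMB8 lies at 0.70 and -1.19, TAPBP at 0.63 and -0.63, and JAK1 at -1.39 and 1.23.

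Class I related molecules, which include the stress ligands of the NKG2D receptor, were more mixed. Of 12 listed genes 10 were tested, with 4 raised and 2 lowered with guide 2 (29.3% of all genes called), and 3 raised and 1 lowered with the label guide 1 (37.7% of all genes called). MICB, a stress ligand, was raised in both, at 0.957 ± 0.145, 1.75 ± 0.245 and 4.97 ± 0.977 CPM in shScramble, guide 2 and the label guide 1. HFE, the class I like regulator of iron uptake, was raised with guide 2 (from 8.30 ± 1.08 to 14.5 ± 0.860 CPM) and lowered with the label guide 1 (4.12 ± 1.06 CPM). FCGRT, the heavy chain of the neonatal Fc receptor, which also pairs with beta-2-microglobulin, was raised only with the label guide 1 by the call rule (2.66, against -0.58 with guide 2).

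MHC class II genes stayed at low levels. Summed over 13 genes they gave 7.10 to 8.54 CPM in shScramble, 8.25 to 10.3 with guide 2 and 11.6 to 13.8 with the label guide 1, and CIITA, the class II counterpart of NLRC5, had 1.07 ± 0.271, 0.758 ± 0.115 and 1.67 ± 0.543 CPM. Of the 9 class II genes tested, 2 were raised and 1 lowered with guide 2 (8.85% and 20.4% of all genes). With the label guide 1, 7 were raised and 0 lowered (21.2% and 16.5% of all genes). CIITA was among those raised (0.62, adjusted p = 0.0462). Some of these rest on few counts: the shScramble libraries had 4, 2 and 0 of HLA-DOA and 8, 2 and 0 of HLA-DOB.

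The neighbourhood of the members on the chromosomes was then described. Around B2M, 29 tested genes lay within 1 Mb. With the label guide 1, 3 were raised and 13 lowered, beside 21.2% and 16.5% of all genes. Their median log2 fold change there was -0.54, close to the -0.50 of B2M itself. With guide 2 the same neighbours gave 5 raised and 7 lowered, beside 8.85% and 20.4% of all genes. Their median was 0.13, and B2M stood at 0.15. Around TAPBP, 42 neighbours had medians of 0.05 with the label guide 1 and 0.12 with guide 2, so that TAPBP at -0.63 and 0.63 stood away from both. NLRC5 at -0.73 with the label guide 1 had 33 neighbours with a median of 0.01, and the 60 neighbours of TAP1 had a median of 0.04 with guide 2. Whether the number of gene copies differed between the lines was not tested.

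**Figure D5:**
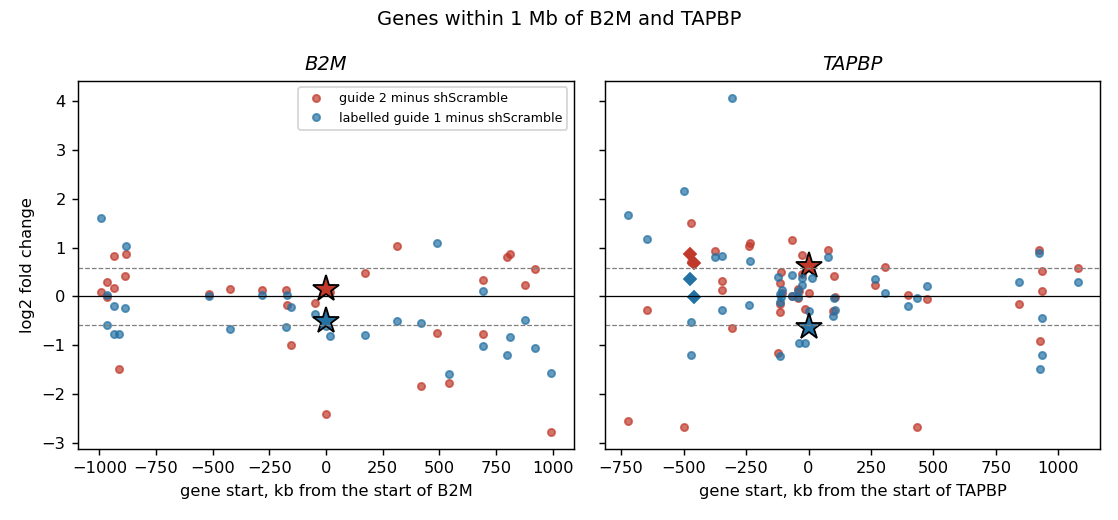
Log2 fold change against shScramble (vertical axis) of the tested genes within 1 Mb of B2M (left) and TAPBP (right), by the distance of their start from that of the named gene in kb (horizontal axis). Stars mark B2M and TAPBP, diamonds other members, and dashed lines the 1.5-fold limit. With the label guide 1 most genes around B2M lie under 0 (median -0.54), and those around TAPBP scatter about 0 (median 0.05).

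Over the 9 libraries the members fell into a few patterns. The correlation of log2 CPM, which with 3 groups of 3 libraries mostly reflects the group means and is a description only, was 0.95 between HLA-C and TAP2, 0.91 between HLA-C and TAP1, and 0.91 between B2M and TAPBP. It was -0.95 between HLA-B and NLRC5. Among 11784 genes with at least 5 CPM, the genes closest in pattern were SRP14 (r = 0.997) and SERF2 (r = 0.996) for B2M, which both lie on chromosome 15 as well. For TAPBP they were MFN2 (r = 0.998) and FPGS (r = 0.998), for HLA-C PRKACB (r = 0.998) and CITED2 (r = 0.997), for HLA-B ZNF526 (r = 0.997) and SCML2 (r = 0.995), for TAP1 MARK2 (r = 0.996) and GYG1 (r = 0.993), for TAP2 HPSE (r = 0.985) and AHCYL1 (r = 0.983), and for NLRC5 DUSP8 (r = 0.990) and PIF1 (r = 0.985). For HLA-E and HLA-F the closest were ADCK1 (r = 0.966) and UBE2D3 (r = 0.886).

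METTL3 methylates adenosine mostly within the letters GGACT or close variants of them. In the canonical transcripts of GENCODE these letters occurred 11 times in NLRC5 (1.62 per kb), 4 times in HLA-E (1.57), 8 times in TAP2 (1.42), 4 times in TAPBP (1.16), once in B2M (1.06), 2 times in TAP1 (0.745), once each in HLA-B (0.651) and HLA-C (0.649), and 0 times in HLA-F. The median over 20046 transcripts was 0.925 per kb. TAP1 lay under this median and TAP2 above it. Whether these letters relate to the differences between groups was not tested. Methylation itself was not measured in these libraries.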

How the data were processed

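RNA was measured by RNA-seq in 9 libraries of LNCaP:C4-2 cells, 3 each of shScramble, shMETTL3 guide 2 and shMETTL3 guide 1. The authors trimmed the reads with Trim Galore and Cutadapt, aligned them with STAR to GRCh38 (Ensembl annotation) and assigned them to genes with FeatureCounts, and deposited raw counts per gene for each library, without normalization. The strand setting and how multi-mapping reads were handled are not given in the sources used here, so reads of overlapping or near-identical genes could be assigned to either. Symbols were matched to 56558 of 60675 Ensembl identifiers (93.2%) from a later annotation.

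Everything else was computed from these counts. The main test was edgeR's (4.0.16) quasi-likelihood F test with TMM factors and filterByExpr (minimum count 10, minimum total 15), 1 coefficient per group and all 9 libraries. Calls required at least a 1.5-fold difference with a p-value, adjusted by Benjamini-Hochberg over all genes, below 0.05. Means and SDs are of normalised CPM over 3 libraries. Sequences are from RefSeq and GENCODE. The script was tested on simulated data with 200 changed genes. All members were named, as were up to 4 called genes per list, the 2 genes closest in pattern to each member, and a few fixed genes, of which one is not reported here. Members and lists were chosen with earlier results of these data known. Alternatives were DESeq2 (1.42.0), its size factors, library size alone, other filters, only the 6 libraries compared, the adjusted p-value alone, a replicate block, and each library left out. Total counts were 21899501 to 30897639, and a floor of 3 counts is 0.0971 to 0.137 CPM, which covers counting error only. No 2 libraries of a group agreed within sampling noise.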

Additional observations from a re-analysis of the deposited data

Results flagged for a closer look

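The effects of the hairpins differed by the direct test of guide 2 against the label guide 1 (edgeR's quasi-likelihood test) for 4 of the 9 genes at an adjusted p-value below 0.05 with a 1.5-fold difference, as for 47.3% of all genes, and for 8 of the 9 without the fold limit, as for 74.6%. The log2 difference was 1.26 for TAPBP, 0.69 for TAP1, 0.65 for B2M and 0.61 for NLRC5, higher in each of the 3 guide 2 libraries than in each of the 3 libraries labelled guide 1, and 75.8% of all genes did not overlap between these groups. This comparison uses no shScramble library. The lines also differed in METTL3 and in the luminal markers, whose part in these differences was not tested. Groups of 3 libraries were not examined for outlying samples.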

How the results depend on the processing

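Scaling by library size alone moved the median log2 fold change of all genes for guide 2 from -0.04 to -0.19 and the share raised among called genes from 30.2% to 17.2%. Against shScramble it left 1 of the 3 members called with guide 2, since TAP1 stood at 0.53 and TAPBP at 0.48, put B2M at -0.0025, HLA-B at 0.01 and HLA-E at 0.06, and it left 1 member called between the hairpin groups, with B2M at 0.51, TAP1 at 0.56 and NLRC5 at 0.48. Without the fold limit the members called were 7 (guide 2), 6 (label guide 1) and 8 (between hairpins), and the pathway genes 32, 35 and 40 of 52. HLA-C with guide 2 was called with DESeq2 size factors (0.59), DESeq2 (0.60), no filter (0.60) and without guide 2 replicate 1 (0.59) or 2 (0.59), and lay at 0.43 with library size alone and 0.53 with a minimum of 1 CPM. With a minimum of 1 CPM, TAPBP with guide 2 (0.58) and NLRC5 between hairpins (0.57) were not called. NLRC5 was also lost without guide 1 replicate 1 (0.56) or guide 2 replicate 2 (0.56), and TAP2 gained without guide 1 replicate 2 (0.61). Apart from that of B2M, signs turned for values near 0 that were not called: TAP1 with the label guide 1 stood at 0.0032 with DESeq2 and between -0.0801 and 0.0363 when single libraries were left out, above 0 without guide 1 replicate 1, guide 1 replicate 2 or shScramble replicate 2, and HLA-F between hairpins at -0.14 (library size), -0.0425 (minimum 1 CPM), -0.0072 (replicate block), and between -0.107 and 0.193 without single libraries. The causes were not tested. Of the alternatives for single members, 420 kept direction and side of the threshold, 18 gained the call, 9 lost it and 12 reversed.

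The replicate numbers did not pair the libraries: libraries with the same number correlated between -0.0981 and 0.0529 in their deviations from the group means. With the replicate block 3, 2 and 4 members were called, as without it, and 5494, 7140 and 9027 genes in all. Among the members counts were lowest for HLA-F, with 89 to 182 per library.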
